A study of Mus musculus with 8 samples.

Results

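Tight junction proteins and simple epithelial keratins were followed here through the H3K4me3 at their genes in mouse lung tumor cells. The set held 10 genes: the claudins Cldn3, Cldn4, Cldn7 and Cldn18, the junction proteins Ocln and Tjp1, and the keratins Krt7, Krt8, Krt18 and Krt19. All peaks listed under these gene names in the deposited H3K4me3 table were taken, which gave 23 of 35486 peaks for 9 of the 10 genes. No peak was listed under Krt7.

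H3K4me3 was profiled by CUT&Tag, in which an antibody against the mark guides the release of the DNA around it. The cells were CD45-CD31-EpCAM+ tumor cells, sorted from the tumor-bearing lungs of KL mice (Lkb1fl/fl, replicates 1 and 2) and KLG4m/m mice (Lkb1fl/fl Gpx4m/m, replicates 3 and 4), with 1 library per replicate. Mice of both genotypes received intranasal Ad-Cre at 8 to 10 weeks of age, tamoxifen from 5 weeks later for 2 weeks, and 3 weeks of rest, so that cells were taken 10 weeks after Ad-Cre. Both genotypes also carried a further Cre-dependent allele, and Cre acted on it and removed Lkb1 in the infected cells of both. In KLG4m/m mice Cre also switched on DreERT2, and tamoxifen then removed exons 5 to 7 of Gpx4 in these cells. The deletion was thus limited to cells that had taken up the adenovirus and to cells descended from them. The comparison asked where H3K4me3 in established KL tumor cells differed after loss of Gpx4. The study's methods give 3 mice in total for the assay and a figure legend 2 mice per group, which matches the 2 libraries per genotype. No label names the animal of a library, so the p-values below measure the spread between these libraries. The libraries held 3244495 to 3463731 reads in peaks. Libraries of 1 genotype differed by slightly more than counting noise over the peaks (chi-square per degree of freedom of 1.13 in KL and 1.23 in KLG4m/m), and pairs across genotypes by more (2.37 to 2.80).

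Tight junctions seal the space between neighboring epithelial cells. Claudins are membrane proteins whose strands set which ions cross the seal, occludin (Ocln) lies in the same strands, and ZO-1 (Tjp1) is the scaffold beneath them that ties the strands to actin. Claudin 18 is the prominent claudin of the alveolar epithelium, and a form from another promoter marks the stomach. Keratins 8 and 7 (type II) pair with keratins 18 and 19 (type I) in the filaments of simple epithelia, and Krt8 is known to be raised in alveolar cells during repair. H3K4me3 marks the starts of active or poised genes, and its level is not a measure of RNA.

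H3K4me3 was lower in KLG4m/m than in KL tumor cells at Cldn18 and Tjp1, and at no other member gene did the change pass the test. With the reads of all peaks of a gene summed, Cldn18 fell by 0.74 on the log2 scale and Tjp1 fell by 0.51. The claudins Cldn3, Cldn4 and Cldn7, occludin and the keratins Krt8, Krt18 and Krt19 had log2 fold changes between -0.28 and 0.13. Thus 2 of 9 genes were called lower and 0 higher, where 9.63% of all 20871 genes were called lower and 5.38% higher (edgeR's quasi-likelihood test, Benjamini-Hochberg adjusted p under 0.05). At an unadjusted p under 0.05 the counts were again 2 lower and 0 higher, beside 3429 lower and 2585 higher of all 20871 genes. DESeq2 called 1 lower and 0 higher, beside 337 lower and 122 higher in the whole table. The median log2 fold change was -0.0043 for the 9 genes and 0.0023 over all genes.

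At the level of single peaks, 3 of the 23 were called lower and 0 higher, against 5.52% and 3.1% of all listed peaks. At an unadjusted p under 0.05, 8 were lower and 1 higher, beside 4780 lower and 3958 higher of all 35486 peaks. DESeq2 called 0 of the 23, of which 16 had an adjusted p there. In the whole table it called 250 lower and 33 higher of 21726 peaks with an adjusted p. Both KLG4m/m libraries lay below both KL libraries at 10 of the 23 peaks and above them at 3, where 26.6% and 27.5% of all peaks were so separated. The median log2 fold change was -0.28 for the 23 peaks and 0.0077 over all peaks. Peaks of 1 gene share their gene, so the 23 peaks are not 23 independent observations.

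**Figure D1:**
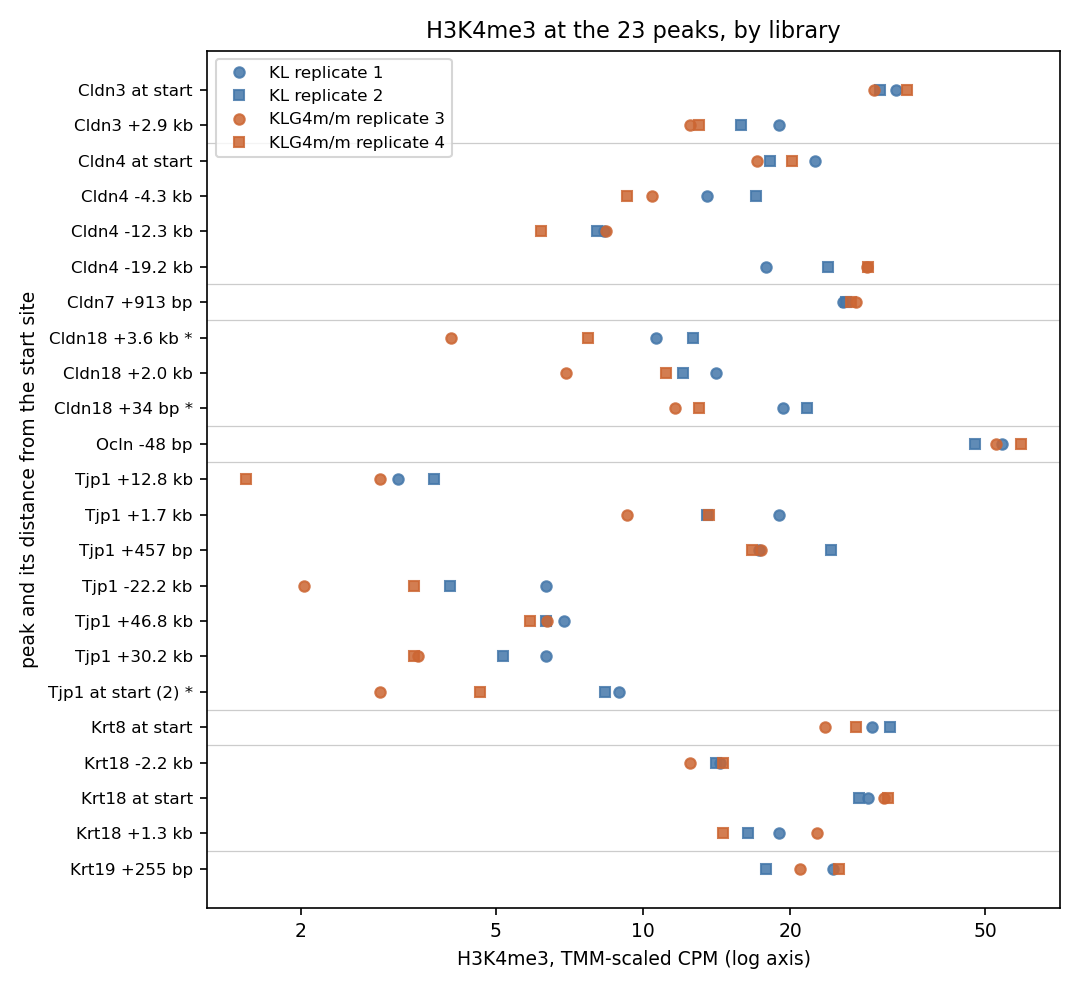
TMM-scaled CPM (log axis) of the 23 peaks in the 4 libraries; rows give the gene and the distance of the peak from the annotated start site, an asterisk marks an adjusted p under 0.05, and (2) marks the start of the Tjp1 transcript NM_001417373.1. Blue points are KL and orange points KLG4m/m libraries; the 3 Cldn18 rows and the lowest Tjp1 row show the groups apart, while the start peaks of Cldn3, Cldn4, Ocln and Krt19 show them mixed.

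The promoters that carried the peaks are shown first, because the called Cldn18 peak, and keratin and claudin peaks that were not called, lay over or beside them. RefSeq sequences of 300 bases, from 250 before to 50 after a start, were matched by symbol for 9 of the 10 genes (12 windows, build GRCm38.p6). The table's positions belong to another build, so a peak was placed on a window by its offset from the start of a transcript of the same genomic span. Capitals mark matches on either strand to the motifs searched, which were TATAAA (the TATA box), GGGCGG (the GC box), CACCTG (the E-box), TGANTCA (AP-1), AACCNGTT (Grainyhead), TGTTTAC (forkhead) and CACTTGA (Nkx2-1). The windows are those of the downstream Cldn18 start (chr9:99710014-99710313, minus strand), of Cldn4 (chr5:134946885-134947184, minus strand), of Krt8 (chr15:102004293-102004592, minus strand) and of Krt18 (chr15:102027966-102028265, plus strand), each written in the direction of its gene.
Cldn18: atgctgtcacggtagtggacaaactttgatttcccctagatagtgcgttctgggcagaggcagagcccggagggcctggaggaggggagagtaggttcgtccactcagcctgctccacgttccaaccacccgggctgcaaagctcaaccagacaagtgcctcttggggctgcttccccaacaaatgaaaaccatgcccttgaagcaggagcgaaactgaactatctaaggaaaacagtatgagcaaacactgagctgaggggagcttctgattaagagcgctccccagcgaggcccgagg
Cldn4: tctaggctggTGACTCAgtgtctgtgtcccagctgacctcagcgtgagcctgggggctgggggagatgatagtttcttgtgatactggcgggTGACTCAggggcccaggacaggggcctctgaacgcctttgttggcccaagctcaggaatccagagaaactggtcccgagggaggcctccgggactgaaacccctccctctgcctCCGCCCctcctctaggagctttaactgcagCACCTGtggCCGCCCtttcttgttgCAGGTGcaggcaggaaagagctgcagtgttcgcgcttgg
Krt8: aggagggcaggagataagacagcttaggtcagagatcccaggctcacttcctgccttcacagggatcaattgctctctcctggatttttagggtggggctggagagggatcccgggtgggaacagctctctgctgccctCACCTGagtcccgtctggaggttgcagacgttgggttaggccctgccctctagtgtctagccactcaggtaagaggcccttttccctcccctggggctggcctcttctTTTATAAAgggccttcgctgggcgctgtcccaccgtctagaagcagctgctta
Krt18: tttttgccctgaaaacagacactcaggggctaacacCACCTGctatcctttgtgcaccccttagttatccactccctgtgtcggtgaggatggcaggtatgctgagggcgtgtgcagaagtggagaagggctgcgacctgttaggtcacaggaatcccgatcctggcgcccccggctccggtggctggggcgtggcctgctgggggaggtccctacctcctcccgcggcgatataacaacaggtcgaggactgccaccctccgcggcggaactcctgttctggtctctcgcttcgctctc

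The called Cldn18 peak began 34 bases inside the transcript and covered the last 16 bases of its window, while the peaks of Cldn4, Krt8 and Krt18 covered 300, 279 and 230 bases of theirs. Neither Cldn18 window held a match to any of the 7 motifs. The E-box, which Snail and Zeb factors can bind, was found in 8 of the 12 windows and in 20.2% of all 32851 RefSeq windows. It was in the windows of Cldn4, Krt8 and Krt18. The Ocln windows overlap and share an E-box match, so the 12 windows are not separate observations. The GC box was in 7 of the 12 and in 35.7% of all. The TATAAA motif was in the Krt8 window alone of the 12, and in 13.6% of all windows. Its overlapping matches there, on both strands, began at -3 and -1 bases from the annotated start. The AP-1 motif stood in the Cldn4 window, at 2 places, and in 7.81% of all windows. The Grainyhead, forkhead and Nkx2-1 motifs were in none of the 12 and in 2.09%, 3.65% and 3.06% of all windows. A match or its absence concerns these letters in these windows only. The GC content of the Cldn18 windows was 55.7% downstream and 52% upstream, beside 61% for Cldn4, 58% for Krt8, 61.3% for Krt18 and a median of 52.7% over all windows.

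Cldn18 carried 3 peaks, all around the start of the transcript NM_001194922.1, the downstream one of its RefSeq starts. No listed Cldn18 peak lay over the upstream window. Which start gives the alveolar form and which the stomach form was not tested, so the changes below are assigned to neither form. The peak at the start (chr9:99591682-99592082, in the table's build) had counts of 67 and 75 reads for KL and of 40 and 42 for KLG4m/m. Its level was 20.4 ± 1.6 CPM in KL and 12.3 ± 0.99 CPM in KLG4m/m (mean ± SD, n = 2 each), a log2 fold change of -0.73 (SE 0.20, adjusted p = 0.0200). The groups did not overlap, and the gap between them was larger than the spread within either.

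The peak in the first intron of Cldn18, 3574 bp from the start (chr9:99588142-99588542), held 37 and 44 reads in KL and 14 and 25 in KLG4m/m. Its log2 fold change was -0.99 (SE 0.29, adjusted p = 0.0320). Between these lay a peak at 1972 bp at 49 and 42 reads for KL and 24 and 36 for KLG4m/m, where the change of -0.54 did not pass the test (adjusted p = 0.178). At all 3 peaks both KLG4m/m libraries were below both KL libraries, as at 26.6% of all listed peaks. No peak of Cldn18 was shown to change differently from the other peaks of the gene (lowest adjusted p = 0.870, edgeR's diffSpliceDGE).

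Summed over its 3 peaks, Cldn18 held 153 and 161 reads in KL and 78 and 103 in KLG4m/m. The log2 fold change was -0.74 (95% interval -1.03 to -0.45, adjusted p = 7.46e-05). The call on the sum held in every alternative run for it, but only just with DESeq2 (-0.73, adjusted p = 0.0477). Without KLG4m/m replicate 3 the sum fell by less (-0.51). Both single peaks lost their calls without KL replicate 2 (-0.65 at the start and -0.86 in the intron) and without KLG4m/m replicate 3 (-0.65 and -0.59). Fewer cells with the mark and less mark per cell cannot be told apart in these pooled libraries.

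Tjp1 carried 7 peaks over its several annotated starts, more than any other member. The peak at the start of NM_001417373.1, the most upstream of the gene's listed peaks (chr7:65177159-65177559), held 31 and 29 reads in KL and 10 and 15 in KLG4m/m. Its level was 8.64 ± 0.40 CPM in KL and 3.77 ± 1.2 CPM in KLG4m/m (mean ± SD, n = 2 each). The log2 fold change was -1.20 (SE 0.33, adjusted p = 0.0228), the largest fall among the 23 peaks, at a depth of few reads. This call was lost without KL replicate 1 (-1.15, adjusted p = 0.0833), without KL replicate 2 (-1.24, adjusted p = 0.0593) and without KLG4m/m replicate 3 (-0.89, adjusted p = 0.181).

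The strongest Tjp1 peak lay 457 bp inside NM_001163574.2, a transcript that starts further downstream, at 60 and 84 reads for KL and 60 and 54 for KLG4m/m. Here the groups overlapped in reads and the change was -0.28 (adjusted p = 0.392). The peak at 1684 bp held 66 and 47 reads in KL and 32 and 44 in KLG4m/m (-0.51, adjusted p = 0.168). The other 4 peaks, in introns, held 5 to 24 reads each and had log2 fold changes of -0.93 to -0.11, none of them called. All 7 values lay below 0, beside 17379 of all 35486 peaks. At 4 of the 7 both KLG4m/m libraries lay below both KL libraries, as at 26.6% of all peaks. The 7 peaks share 1 gene and are not independent observations. The within-gene test gave no peak of Tjp1 a change that differed from the rest (lowest adjusted p = 0.424), so a difference between its start sites was not shown.

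Summed over its 7 peaks, Tjp1 held 236 and 227 reads in KL and 153 and 159 in KLG4m/m. The log2 fold change was -0.51 (95% interval -0.74 to -0.29, adjusted p = 5.51e-04). The sum lost its call when peaks averaging under 10 CPM were dropped (-0.39, adjusted p = 0.0640) and with DESeq2 (-0.51, adjusted p = 0.0893).

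**Figure D2:**
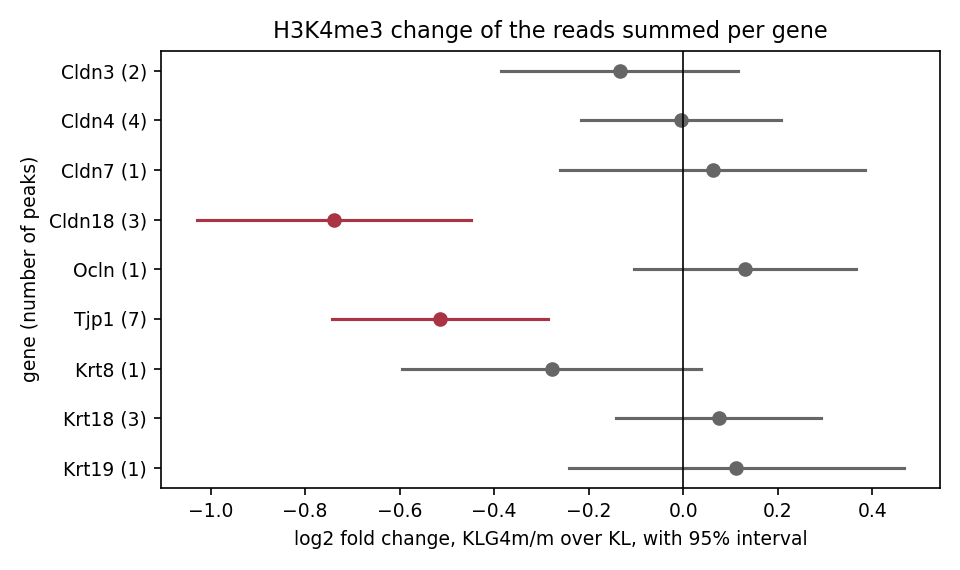
Log2 fold change (KLG4m/m over KL) of the reads summed over all peaks of each gene, with 95% intervals from edgeR; the number of peaks is in parentheses and red marks an adjusted p under 0.05. The intervals of Cldn18 (-1.03 to -0.45) and Tjp1 (-0.74 to -0.29) lie below 0 and the other 7 include it.

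Cldn3 and Cldn4, neighbors on chromosome 5 whose products seal the junctions of many simple epithelia, had values at their starts close to those of KL. The Cldn3 start (chr5:135014840-135015240) held 114 and 106 reads in KL and 102 and 112 in KLG4m/m (log2 fold change 0.02, 95% interval -0.28 to 0.32). A second Cldn3 peak, 2851 bp from the start, held 66 and 55 reads in KL and 43 and 42 in KLG4m/m. The groups were apart there, but the change of -0.45 did not pass the test (adjusted p = 0.169).

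The Cldn4 start (chr5:134975648-134976048) held 78 and 63 reads in KL and 59 and 65 in KLG4m/m (-0.13, 95% interval -0.51 to 0.25). Upstream, the peak at -4300 bp held 47 and 59 reads in KL and 36 and 30 in KLG4m/m (-0.62, adjusted p = 0.0835), and the peak at -12265 bp held 29 and 28 in KL and 29 and 20 in KLG4m/m (-0.16, adjusted p = 0.772). The peak at -19154 bp (chr5:134994942-134995342) was the one member peak with a large positive value: 62 and 83 reads in KL and 99 and 93 in KLG4m/m (0.46, adjusted p = 0.0865). Of the fits with 1 library left out, it passed the test in the one without KL replicate 2 (0.69, adjusted p = 0.0498). The table lists it under Cldn4, yet its far edge was 19726 bp from the Cldn3 start, so that the 2 genes were about equally near. Values of opposite sign at -4300 and -19154 bp left the Cldn4 sum at -0.00 (adjusted p = 0.985), and neither passed the within-gene test (adjusted p = 0.208 and 0.188). Of the 19 member peaks in genes with several peaks 0 passed that test and 3 had an unadjusted p under 0.05, where 1.29% of all peaks tested passed.

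Cldn7, another claudin of the lateral membrane, had a single peak 913 bp into the gene, at 89 and 90 reads for KL and 94 and 86 for KLG4m/m. After scaling the KLG4m/m values lay just above the KL values, by an amount that did not pass the test (log2 fold change 0.06, 95% interval -0.26 to 0.39 for the gene). Occludin had the highest start peak of the set (chr13:100689274-100689674), at 188 and 165 reads for KL and 181 and 191 for KLG4m/m. The libraries of the groups overlapped (0.13, 95% interval -0.10 to 0.37 for the gene).

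Of the keratins, Krt8 had the largest change, and it did not pass the test. Its start peak (chr15:101912606-101913006) held 102 and 111 reads in KL and 81 and 88 in KLG4m/m. The groups were apart, at 30.7 ± 1.9 CPM in KL and 25.4 ± 2.7 CPM in KLG4m/m (mean ± SD, n = 2 each), with a log2 fold change of -0.28 (adjusted p = 0.274). Krt18, which encodes the partner of keratin 8 and lies next to Krt8, had 3 peaks. Its start peak (chr15:101936471-101936871) held 100 and 96 reads in KL and 107 and 102 in KLG4m/m (0.15, adjusted p = 0.567). The peaks at -2179 and 1342 bp had changes of -0.08 and 0.08 with overlapping groups. Krt19 had 85 and 62 reads in KL and 72 and 81 in KLG4m/m at a peak 255 bp into the gene (0.12, adjusted p = 0.743). The 95% intervals allowed a fall of up to 0.59 for Krt8, of up to 0.14 for Krt18 and of up to 0.24 for Krt19 on the log2 scale, each on the sum over the gene's peaks.

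Krt7 had no listed peak under its own name. In RefSeq's GRCm38.p6 table the noncoding gene Gm671 ends 211 bases from the Krt7 start, and the deposited table lists a peak at the start of a Gm671 transcript (chr15:101310071-101310471). That peak held 111 and 104 reads in KL and 86 and 85 in KLG4m/m, with the groups apart and a log2 fold change of -0.28 (adjusted p = 0.243, 1 peak summed as a gene). Whether these reads lay over the Krt7 start was not tested, because positions of the 2 builds were not joined.

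All member peaks were 400 bp long, so that CPM may be compared between them per length. Near the start sites the level over the 4 libraries was highest at Ocln (53.3 CPM), followed by Cldn3 (31.9), Krt18 (29.8), Krt8 (28.0), Cldn7 (26.4), Krt19 (22.1), Cldn4 (19.5), Tjp1 at 457 bp (18.9), Cldn18 (16.4) and Tjp1 at the upstream start (6.20). Ocln exceeded 60.9% of the listed peaks within 1 kb of a start, Krt8 38.5%, Cldn18 26.4% and the upstream Tjp1 start 9.23%. From Cldn3 to Cldn18, neighbors in this order had overlapping libraries, except Cldn7 (25.6 to 27.3 CPM) and Krt19 (17.9 to 25.1 CPM); Ocln and the upstream Tjp1 start stood apart. In KL alone the Cldn18 start, at 20.4 ± 1.6 CPM, stood beside that of Cldn4 at 20.3 ± 3.0 CPM, whereas in KLG4m/m it stood at 12.3 ± 0.99 CPM against 18.6 ± 2.1 CPM (mean ± SD, n = 2 each). This last difference between genes was not tested.

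**Figure D3:**
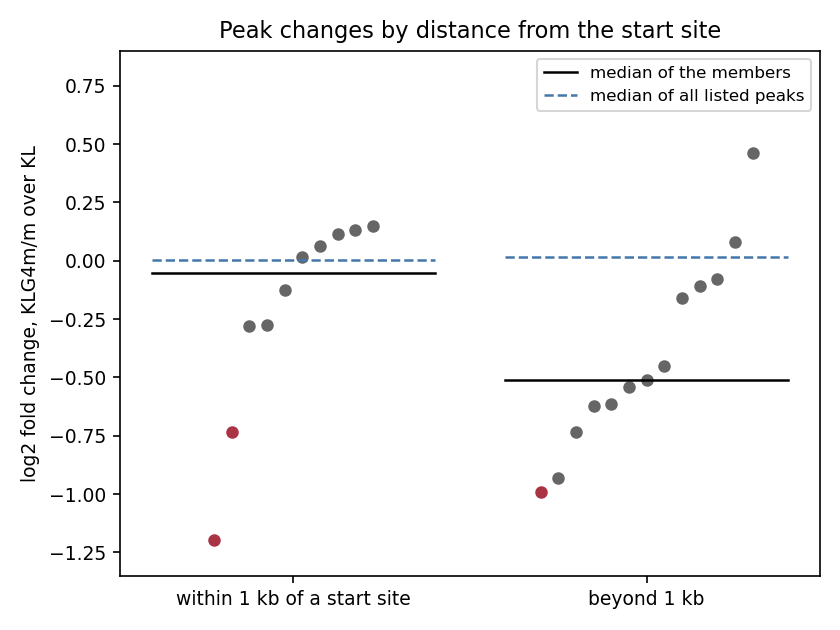
Log2 fold change (KLG4m/m over KL) of the 23 member peaks, split by distance from the annotated start site; red marks an adjusted p under 0.05. Solid lines are medians of the member peaks (-0.05 within 1 kb and -0.51 beyond) and dashed lines medians of all listed peaks (0.0024 and 0.015).

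The member peaks near and away from a start had different median changes. Of the 10 within 1 kb, 5 had values below 0 and the median was -0.05. Of the 13 beyond 1 kb, 11 had values below 0 and the median was -0.51, while the median of all 18413 listed peaks beyond 1 kb was 0.015. The 13 peaks came from 5 genes, with 5 from Tjp1 and 3 from Cldn4, and 1 of them was called. Cldn18 added its peaks at -0.99 and -0.54. Most of the 13 thus lay in Tjp1 and Cldn18, the genes called lower, so distance and gene cannot be told apart here. Peaks beyond 1 kb were also weaker, at 5 to 99 reads per library against 10 to 191 within 1 kb. These medians are a description with no test.

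Within 50 kb of the member peaks lay 30 peaks of other genes, and none of these lay that near to a Cldn18 or Tjp1 peak. Of the 30, 0 were called by edgeR, beside 5.52% of all peaks called lower and 3.1% higher. DESeq2 also called 0, beside 250 lower and 33 higher in the whole table. At an unadjusted p under 0.05, 7 were lower and 4 higher, beside 4780 lower and 3958 higher of all 35486 peaks. The peak with the largest fall among the 30 was that of the noncoding gene Gm41404 between Krt8 and Krt18, at 32 and 20 reads for KL and 13 and 12 for KLG4m/m (-0.99, adjusted p = 0.0763).

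The rest of the junction and keratin genes gave the members their context. Over 6 further lists with 118 genes, 88 had a listed peak. Of these, 21 were called lower and 2 higher, with a median log2 fold change of -0.14. By share this was 23.9% lower and 2.27% higher, beside 9.63% and 5.38% of all genes. At an unadjusted p under 0.05 the counts were 26 and 6, beside 3429 lower and 2585 higher of all 20871 genes. DESeq2 called 7 lower and 0 higher, beside 337 lower and 122 higher in the whole table. These whole-table counts also stand beside the unadjusted and DESeq2 counts of each gene list below. Without KL replicate 1 or without KL replicate 2, 12 were called lower. The lists are described by these counts alone.

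Proteins of the junctional plaque and of cell polarity had the most genes called lower, with 8 of 22 (36.4%, beside 9.63% of all genes) and 0 higher. At an unadjusted p under 0.05 the counts were 9 and 0, and DESeq2 called 4 and 0. Pard6b and Pard3, partners in the PAR complex that sets the apical pole, had 141 and 184 against 68 and 54 reads (-1.36, adjusted p = 2.86e-11) and 112 and 132 against 57 and 51 reads (-1.12, adjusted p = 2.75e-07), with KL first. Magi3, a junction scaffold, had 90 and 85 reads in KL and 33 and 28 in KLG4m/m (-1.46, adjusted p = 4.29e-08). Afadin (Afdn), which links nectins to actin, had 49 and 55 reads in KL and 17 and 16 in KLG4m/m (-1.59, adjusted p = 5.74e-06). All 4 falls were larger than those of Tjp1 and Cldn18 as summed here, a difference that was not tested, and none of the 4 lost its call when a library was left out. The other 4 of the 8 each lost theirs without at least 1 library, and the list then held 5 genes called lower without KL replicate 2 and 6 or 7 without any other library.

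Among 11 other claudins with a peak, Cldn9 fell and Cldn22 and Cldn10 rose. That was 9.09% called lower and 18.2% higher, beside 9.63% and 5.38% of all genes. Cldn9 had 110 and 113 reads in KL and 56 and 58 in KLG4m/m (-0.91, adjusted p = 3.03e-05). Cldn22 had 63 and 58 reads in KL and 95 and 99 in KLG4m/m (0.73, adjusted p = 0.00121). Cldn10 had 126 and 101 reads in KL and 175 and 135 in KLG4m/m (0.50, adjusted p = 0.00637), a call lost without KL replicate 2 (0.36, adjusted p = 0.205) or without KLG4m/m replicate 3 (0.35, adjusted p = 0.174).

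Among 13 other tight junction membrane proteins, 3 were called lower (23.1%) and 0 higher, beside 9.63% and 5.38% of all genes. At an unadjusted p under 0.05 the counts were 3 and 2, and DESeq2 called 0. The 3 called lower were Esam, an adhesion molecule best known from endothelium (-0.43, adjusted p = 0.00237), F11r, which encodes JAM-A (-0.30, adjusted p = 0.00530), and Ildr2, an angulin of tricellular contacts (-1.01, adjusted p = 0.00593). Each lost its call without at least 1 library: Esam without KL replicate 1 (-0.38, adjusted p = 0.0576) or KLG4m/m replicate 3 (-0.28, adjusted p = 0.132), F11r without KL replicate 1 (-0.25, adjusted p = 0.126), and Ildr2 without KL replicate 2 (-0.63, adjusted p = 0.306) or KLG4m/m replicate 4 (-0.80, adjusted p = 0.111).

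In the adherens junction and desmosome list, 5 of 16 genes (31.2%) were called lower and 0 higher, beside 9.63% and 5.38% of all genes. At an unadjusted p under 0.05 the counts were 6 and 1, and DESeq2 called 2 and 0. The desmosomal plakophilin Pkp2 (-0.69, adjusted p = 3.35e-05) and the catenin Ctnnd1, p120, which keeps E-cadherin at the membrane (-0.45, adjusted p = 8.12e-05), held their calls with any 1 library left out. Ctnna1, which ties cadherins to actin (-0.65, adjusted p = 0.00107), lost its call without KL replicate 1 (-0.50, adjusted p = 0.0832) or KLG4m/m replicate 4 (-0.50, adjusted p = 0.0583). E-cadherin (Cdh1) had 290 and 305 reads in KL and 216 and 225 in KLG4m/m (-0.38, adjusted p = 0.00396), and lost its call without KL replicate 2 (-0.33, adjusted p = 0.0941) or KLG4m/m replicate 3 (-0.30, adjusted p = 0.0702).

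Of 23 other keratins 6 had a listed peak, and the basal keratin genes Krt5, Krt14, Krt15 and Krt17 had none. Of the 6, 1 was called lower (16.7%) and 0 higher, beside 9.63% and 5.38% of all genes. At an unadjusted p under 0.05 the counts were 1 and 0, and DESeq2 called 0. Krt1, a keratin of differentiated epidermis, was the 1 called lower (-0.58, adjusted p = 0.0265), and it lost the call with any 1 library left out (-0.64 to -0.50, adjusted p = 0.0651 to 0.177). Beside 9.63% lower and 5.38% higher of all genes, 3 of 20 regulators of the epithelial programme were called lower (15%) and 0 higher. At an unadjusted p under 0.05 these counts were 5 and 1, and DESeq2 called 0. Those called lower were Hnf4a, a nuclear receptor of gut and liver epithelia (-1.13, adjusted p = 0.00196), the Grainyhead factor Grhl1 (-0.34, adjusted p = 0.0107) and the protease inhibitor Spint2 (-0.40, adjusted p = 0.0213). Hnf4a lost its call without KL replicate 1 (-0.93, adjusted p = 0.0632) or KLG4m/m replicate 3 (-0.71, adjusted p = 0.142), Grhl1 without KL replicate 1 (-0.35, adjusted p = 0.0610), KL replicate 2 (-0.32, adjusted p = 0.109) or KLG4m/m replicate 4 (-0.24, adjusted p = 0.182), and Spint2 without KL replicate 2 (-0.29, adjusted p = 0.307) or KLG4m/m replicate 3 (-0.32, adjusted p = 0.153).

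**Figure D4:**
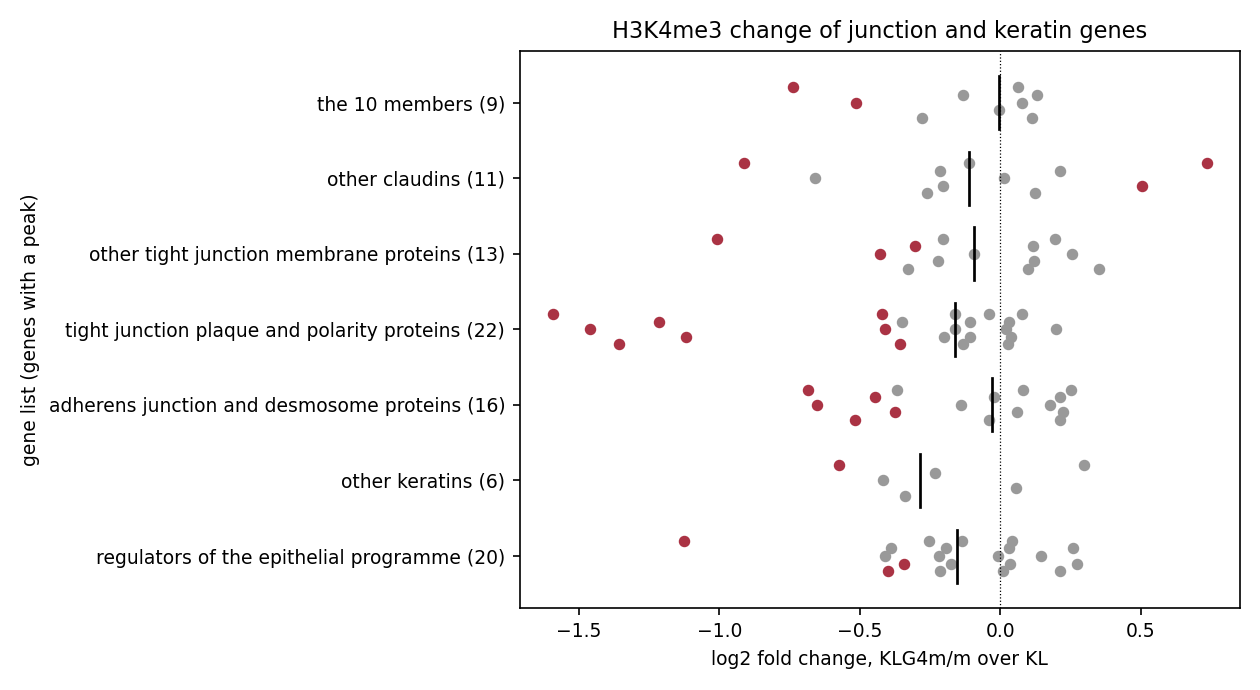
Log2 fold change (KLG4m/m over KL) of the reads summed per gene for the members and 6 lists of related genes, 1 point per gene with a listed peak (number in parentheses); red marks an adjusted p under 0.05 and black bars the median. The plaque and polarity list reaches the lowest values, down to -1.59, and the members range from -0.74 to 0.13.

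Some markers of the sorted cells were also lower in KLG4m/m. Epcam, one of the genes by which the cells were sorted, had 182 and 200 reads in KL and 115 and 94 in KLG4m/m (-0.82, adjusted p = 1.56e-06). Of 7 epithelial identity markers with a peak 3 were called lower and 0 higher, beside 9.63% and 5.38% of all genes (4 and 0 at an unadjusted p under 0.05, 2 and 0 by DESeq2). The 3 were Epcam, Cdh1 and Foxa2. The summed level of the 7 was 448 CPM in both KL libraries and 365 to 387 CPM in KLG4m/m. The other 4 did not pass the test: Nkx2-1, the lineage factor of lung epithelium, was at 39.3 ± 1.9 CPM in KL and 36.0 ± 2.4 CPM in KLG4m/m (-0.13, adjusted p = 0.576), Foxa1 was at -0.15 (adjusted p = 0.173), Rab25 at -0.02 (adjusted p = 0.936) and Ap1m2 at 0.23 (adjusted p = 0.202). Foxa2, Foxa1, Rab25 and Ap1m2 were named after their values were seen.

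Of 12 leukocyte markers with a peak, 5 were called higher and 1 lower, beside 5.38% and 9.63% of all genes (7 and 1 at an unadjusted p under 0.05, 1 and 0 by DESeq2). Without KL replicate 1 the number called higher was 3, without KL replicate 2 or KLG4m/m replicate 4 it was 2, and without KLG4m/m replicate 3 it was 4. The summed level of the 12 was 394 to 408 CPM in KL and 473 to 482 CPM in KLG4m/m. Among the 5 were Itgam, Cd3d, Ms4a1 and Adgre1, and the 1 was Lyz2, which alveolar type II cells also use (named after their values were seen). Ptprc, which encodes CD45, against which the cells were sorted, had 189 and 207 reads in KL and 241 and 204 in KLG4m/m (0.22, adjusted p = 0.163), so that its peaks were present in both groups. The endothelial list summed to 367 to 405 CPM in KL and 386 to 392 CPM in KLG4m/m. Of its 11 genes 8 had values below 0, with a median log2 fold change of -0.26. Tek was called lower (-0.55, adjusted p = 0.0205) and Erg higher (0.38, adjusted p = 0.00277), which is 9.09% each way. Of all genes 9.63% were called lower and 5.38% higher. Pecam1, which encodes CD31, was at 0.19 (adjusted p = 0.222). The fibroblast list, with 6 genes, summed to 117 to 120 CPM in KL and 119 to 126 CPM in KLG4m/m. Of the 6, 3 had values above 0 and 3 below, with a median log2 fold change of 0.03. Called were 1 higher (16.7%) and 0 lower, beside 5.38% and 9.63% of all genes. At an unadjusted p under 0.05, 1 was higher and 2 were lower, and DESeq2 called 0. Here Pdgfrb was called higher at few reads, 9 and 10 in KL and 22 and 23 in KLG4m/m (1.29, adjusted p = 0.0155), and Col1a1 was at 0.15 (adjusted p = 0.688). Tek, Erg and Pdgfrb were named after their values were seen. Each lost its call with DESeq2 or had no adjusted p there, and without at least 1 library: Erg without KLG4m/m replicate 3 (0.29, adjusted p = 0.0733), Tek without any library but KL replicate 1 (-0.59 to -0.41, adjusted p = 0.0609 to 0.265), and Pdgfrb without any 1 library (1.21 to 1.37, adjusted p = 0.0514 to 0.107). The defining markers all held reads in every library. Of them Epcam and Cdh1 were called lower, while Nkx2-1, Ptprc, Pecam1 and Col1a1 did not pass the test. The part of these shifts in the results at Cldn18, Tjp1 and the related genes was not tested.

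**Figure D5:**
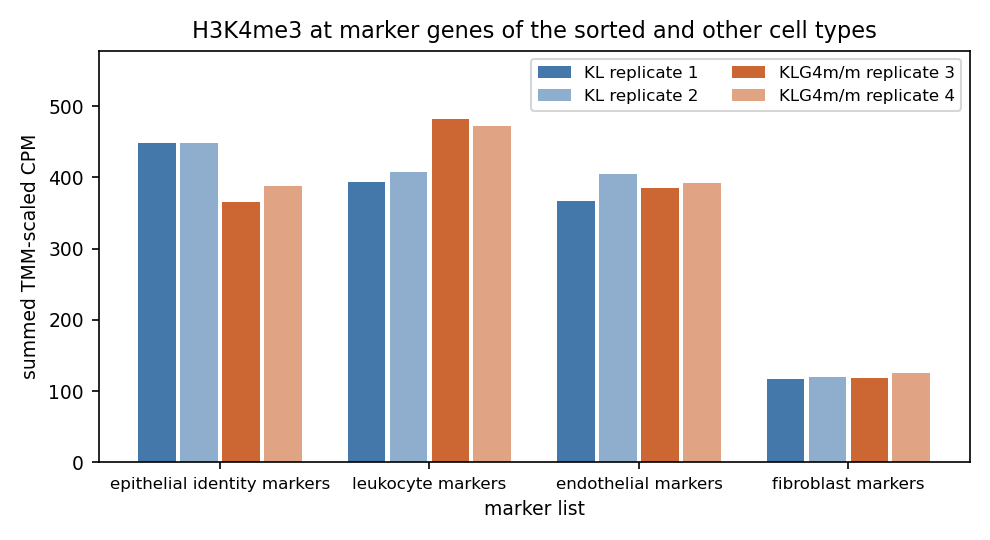
Summed TMM-scaled CPM of the peaks of 4 marker lists in each library (bars from 0). The epithelial list is at 448 CPM in both KL libraries and at 365 to 387 CPM in KLG4m/m, the leukocyte list at 394 to 408 and 473 to 482 CPM.

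At the targeted gene, the Gpx4 start held 242 and 236 reads in KL and 304 and 301 in KLG4m/m (0.40, adjusted p = 0.00854 for the peak), a call lost without KL replicate 2 (0.38, adjusted p = 0.0661). This peak lies outside exons 5 to 7, so it checks nothing about the deletion. Stk11, the gene for Lkb1, had peaks with changes of 0.19 (adjusted p = 0.202) and 0.62 (adjusted p = 0.00140), both at its starts.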

How the data were processed

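H3K4me3 was measured in 4 libraries, and the 4 H3K27ac samples of the series were not analysed here. The authors trimmed the reads with Trim Galore 0.6.10, mapped them with BWA 0.7.15, removed mitochondrial reads, reads with a mapping quality under 30 and duplicates (Picard 2.17.3), called peaks with MACS2 2.2.7.1 and named HOMER 4.11.1 for the assignment to genes. The deposited table holds whole read counts per peak and library, without normalization. How the peaks of the libraries were merged is not given in the sources used here. Counts scaled to reads in peaks cannot show a change by 1 factor at every peak. The table's CPM (4 columns) and the authors' log fold change, F, p and FDR columns were not used. The methods name Ensembl 94, but a contig name in the table is not one of GRCm38, so no coordinates were joined between builds; the RefSeq tables served for names, neighbors and promoter sequences.

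Counts were tested with edgeR 4.0.16 (quasi-likelihood, TMM, no filter, two-sided, R 4.3.3), Benjamini-Hochberg adjusted over all 35486 peaks or, for reads summed per gene, 20871 genes; the threshold was 0.05. diffSpliceDGE compared a peak with the other peaks of its gene. CPM are TMM-scaled, SDs are over the 2 libraries of a group, and intervals cover these libraries only. At 5 to 191 reads per member peak, counting error is large for the weaker peaks. The fits were tested on simulated data with known changes.

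The text names all 10 members with every peak; Gpx4 and Stk11; of each related list the called genes, at most the 4 with the lowest p in each direction; defining cell type markers; and neighbors within 50 kb. Some items under this rule are not reported here. Members, lists and tests were chosen with earlier results of these data known. Alternatives were 2 other scalings, a minimum mean of 10 CPM, each library left out, robust shared variance, DESeq2 1.42.0, limma 3.58.1 on log2(CPM + 1), unadjusted p, and peaks within 1 kb of a start.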

Additional observations from a re-analysis of the deposited data

How the results depend on the processing

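The 3 member peaks called lower became 1 with a minimum mean of 10 CPM, 0 with DESeq2 (16 of the 23 peaks had an adjusted p there), 8 at an unadjusted p, and 0 to 3 with 1 library left out (0 without KL replicate 2 or KLG4m/m replicate 3). Member peaks called higher became 1 at an unadjusted p and 0 to 1 with 1 library left out. The 2 member genes called lower became 1 with the 10 CPM minimum and 1 with DESeq2. Of the related genes, the 21 called lower became 7 with DESeq2, 13 with peaks within 1 kb of a start and 12 to 15 with 1 library left out, and the 2 called higher became 0, 1 and 1 to 3, and 6 at an unadjusted p. Pard3, Pard6b, Magi3 and Pkp2 were called lower in every alternative. Scaling by total reads or on strong peaks, limma and robust shared variance changed no call among the members, the 23 related genes called, the called markers and the Gpx4 and Stk11 peaks, and no alternative run for these turned the direction of a called value. The alternatives for the markers and these peaks were added after seeing the data. Scaling on strong peaks moved the genes called in the whole table from 1122 higher and 2010 lower to 749 and 2330. DESeq2 called 122 higher and 337 lower. The cause of these shifts was not tested. Without a KLG4m/m library the plain fit called 0 peaks in the whole table, so the fits with 1 library left out used robust shared variance, chosen after seeing the data. They assume that the lone library varies like the others. No paired analysis was possible because the groups compared share no replicate number. Depth limits the weaker peaks, since 13 of the 23 member peaks lie beyond 1 kb of a start and hold 5 to 99 reads per library. Calls were also lost at deep genes, such as F11r at 337 to 454 reads per library (DESeq2, adjusted p = 0.206).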
